A study of Homo sapiens with 18 samples.

Results

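RNA of 7 genes of hepatocyte growth factor activation was followed in parental MDA-MB-231 cells and in derivatives with GPS2 targeted by CRISPR-Cas9 or with constitutively active AKT. The genes were SPINT1, SPINT2, ST14, HGFAC, HPN, HGF and MET, each found by its Ensembl identifier among the 57448 genes of the count table. They were chosen by the measured fold change of SPINT1, which had the largest fall in the GPS2 knockout pools, as the genes of its pathway. Its log2 fold change in KO against WT was -4.27. Among genes above a floor on mean reads in WT or in the knockout libraries, DHRS3 followed at -4.15 and CD74 at -3.70. The contrast of KO against WT chose the genes, so their values in it are given below as a description and without a test.

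Hepatocyte growth factor is released as an inactive single chain and becomes a ligand of MET, a receptor tyrosine kinase, after cleavage by a serine protease. Matriptase (encoded by ST14) and hepsin (HPN) are anchored in the plasma membrane and can make this cut, and the HGF activator (HGFAC) is a secreted protease with the same substrate. SPINT1 and SPINT2 encode the transmembrane inhibitors HAI-1 and HAI-2, which block these proteases through Kunitz domains. MET signals in part through PI3K and AKT, and in many carcinomas the pathway acts on motility and growth.

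The cells were MDA-MB-231, an established triple negative breast cancer line, grown in DMEM with 10% FBS. Parental cells (WT) were compared with MB231-KO1 and MB231-KO2 (KO1 and KO2), a pair of independent CRISPR-Cas9 pools with different sgRNA sets against GPS2, which were selected with puromycin and kept as heterogeneous pools and not as clones. MB231-myrAKT cells carried a retroviral myristoylated AKT1, and both knockout pools were also collected after 4 h in 10 µM MK2206, an allosteric AKT inhibitor (KO1+MK and KO2+MK). Each of the 6 groups had 3 libraries. No empty-vector line and no MK2206-treated WT or myrAKT cells were among the 18 libraries, so delivery and selection cannot be told apart from the knockout or the transgene in any comparison with WT. The replicates were not described as separate cultures, and p-values then measure the spread between these libraries, which may be technical.

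The libraries held 23419198 to 39319910 counted reads. VIM, ZEB1, FN1, CD44, KRT18 and AXL, genes known from this mesenchymal-like line, summed to between 3261 and 4218 CPM (the reads of a gene scaled to the size of its library) in all libraries. The summed CPM of 6 markers of fibroblasts, packaging cells and blood cells was 17.4 to 21.4 in WT, 11.2 to 14.1 over the libraries of KO1, KO2, KO1+MK and KO2+MK, and 5.20 to 6.62 in myrAKT, so every other group lay below WT. The sum came nearly all from PDGFRB, with DCN, LUM, NEFL and NEFM at or near 0. The part of PDGFRB-expressing cells in the differences from WT was not tested. GPS2 RNA was 4.56 ± 0.277 CPM in WT, 4.49 ± 0.0363 in KO1 and 6.02 ± 0.123 in KO2 (mean ± SD, n = 3), so it was not lower in the knockout pools. Reads summed over a gene cannot tell edited from intact GPS2 sequence. AKT1 RNA was 135 ± 0.997 CPM in WT and 230.2 ± 11.97 in myrAKT (n = 3).

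Of the 7 genes, 4 passed the filter for testing, which asked for 1 CPM in at least 3 of the 18 libraries. SPINT2 and MET reached 1 CPM in 18 libraries, ST14 in 15 and SPINT1 in 4. WT was the only group in which each library reached this level for SPINT1, so a difference from WT follows in part from the filter, and its differences from WT are given without a test. HGFAC, HPN and HGF reached it in no library.

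SPINT1 (ENSG00000166145) lies on the plus strand of chromosome 15, at chr15:40844018-40858207 of hg38, and is overlapped by the antisense gene SPINT1-AS1, with which it shares 100 exon bases. SPINT1 had the largest fall in the knockout pools among tested genes with a mean of at least 100 reads in WT or knockout libraries. The 220 bases before its first annotated start are shown for this reason. This is the RefSeq sequence of the plus strand at chr15:40843798-40844017 (GRCh38.p14), and it lies within the span of SPINT1-AS1. Capitals mark GGGCGG, the core of the GC box bound by SP factors.
SPINT1 promoter: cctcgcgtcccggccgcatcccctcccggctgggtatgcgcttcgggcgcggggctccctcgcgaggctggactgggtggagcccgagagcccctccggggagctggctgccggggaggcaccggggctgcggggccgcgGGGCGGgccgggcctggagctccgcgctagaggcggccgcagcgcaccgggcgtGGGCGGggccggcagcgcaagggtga

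The stretch held 80.9% G and C and 30 CpG pairs. GGGCGG began at bases 141 and 195 of the stretch and did not overlap another motif searched. On either strand this motif was found in 38.9% of 35116 promoter windows cut to the same 220 bases, and also in the windows of MET and HPN. CAGGTG, an E-box of the ZEB and SNAI repressors, was absent from the SPINT1 stretch and present in 16.0% of the windows, and the FOXO motif GTAAACA was absent from it and present in 2.60%. The absence of these letters says nothing on binding of the factors.

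In WT 314, 296 and 360 SPINT1 reads were counted, against 31, 35 and 30 in KO1 and 3, 1 and 4 in KO2. The myrAKT libraries held 7, 6 and 10 reads, and the treated pools 22, 27 and 34 in KO1+MK and 3, 1 and 5 in KO2+MK. Every WT library was above every other library, and KO1 stood apart from KO2 with or without MK2206.

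As normalized levels, SPINT1 was at 8.99 ± 0.797 CPM in WT, 1.03 ± 0.128 in KO1+MK, 0.863 ± 0.0711 in KO1, 0.220 ± 0.0345 in myrAKT, 0.101 ± 0.0656 in KO2+MK and 0.0734 ± 0.0429 in KO2 (mean ± SD, n = 3). Neighbours in this order that overlapped were KO1+MK with KO1 and KO2+MK with KO2. The knockout pools were thus far apart in residual SPINT1 RNA. Summed over the libraries and scaled to their sizes, KO1 kept 9.59% of the WT reads (exact 95% interval 7.70 to 11.8) and KO2 kept 0.804% (0.346 to 1.59). The share was 2.48% (1.56 to 3.74) in myrAKT. These intervals cover counting error only. In bulk RNA of a pool, fewer cells with SPINT1 RNA and less SPINT1 RNA per cell cannot be told apart.

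**Figure D1:**
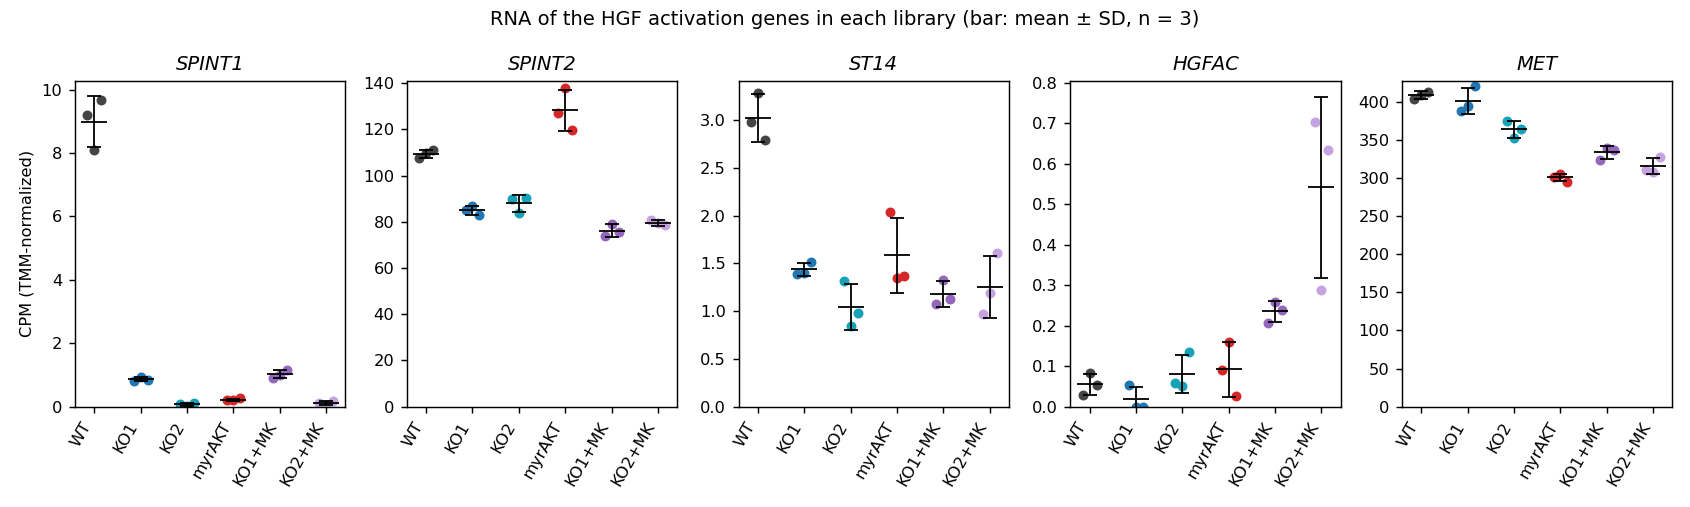
RNA level of 5 of the genes in each library, in CPM after TMM normalization, with every axis starting at 0. Points are libraries and bars are mean ± SD of 3. SPINT1 was highest in WT (8.99 CPM), SPINT2 in myrAKT (128 CPM), and HGFAC stayed below 1 CPM with its highest values in the treated pools.

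SPINT2 (ENSG00000167642, chr19:38244035-38292615), which encodes the related inhibitor HAI-2, was far more abundant. Its CPM values were 108, 109.7 and 111 in WT, 85.0, 86.8 and 83.1 in KO1 and 89.8, 83.8 and 90.1 in KO2. They were 127, 138 and 119.9 in myrAKT, 73.7, 79.0 and 75.8 in KO1+MK and 80.8, 79.3 and 78.5 in KO2+MK. The myrAKT libraries were thus above WT and the knockout libraries below it, without overlap. SPINT2 shares 242 exon bases with an unnamed gene on its own strand and 622 with an antisense transcript, so a part of its reads may have been assigned otherwise. Per kilobase of exon, WT held 21.5 ± 0.339 CPM of SPINT2 and 2.54 ± 0.225 of SPINT1 (n = 3).

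ST14 (ENSG00000149418, chr11:130159782-130210362), the matriptase gene, had 102, 120 and 104 reads in WT. It had 53, 52 and 55 reads in KO1, 46, 33 and 36 in KO2 and 68, 42 and 53 in myrAKT. After MK2206 26, 36 and 33 reads were counted in KO1+MK and 29, 33 and 48 in KO2+MK. WT, at 3.02 ± 0.250 CPM (n = 3), was above every other library, and the other 5 groups, with means between 1.05 and 1.59 CPM, overlapped their neighbours in order.

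The ratio of protease to inhibitor RNA within a library does not depend on library scaling. ST14 per SPINT1, each in CPM per kilobase, was 0.249 to 0.349 in WT and 1.28 to 1.58 in KO1. It was 7.75 to 28.4 in KO2, 4.56 to 8.36 in myrAKT, 0.835 to 1.15 in KO1+MK and 8.26 to 28.4 in KO2+MK. Matriptase RNA was below SPINT1 RNA in WT and above it in KO1, KO2, myrAKT and KO2+MK. SPINT1 was chosen for its fall in the knockout pools, so the higher ratios to SPINT1 there follow in part from that choice. ST14 itself was lower in every other library than in WT. The highest ratios rest on 1 SPINT1 read in a library. SPINT2 RNA was 8.003 to 9.42 times SPINT1 RNA per kilobase in WT, 64.0 to 72.6 times in KO1, 45.3 to 56.2 times in KO1+MK and 323 to 499.9 times in myrAKT. It was 577 to 2271 times in KO2 and 327 to 1538 times in KO2+MK, where SPINT1 had 1 to 5 reads in a library.

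**Figure D2:**
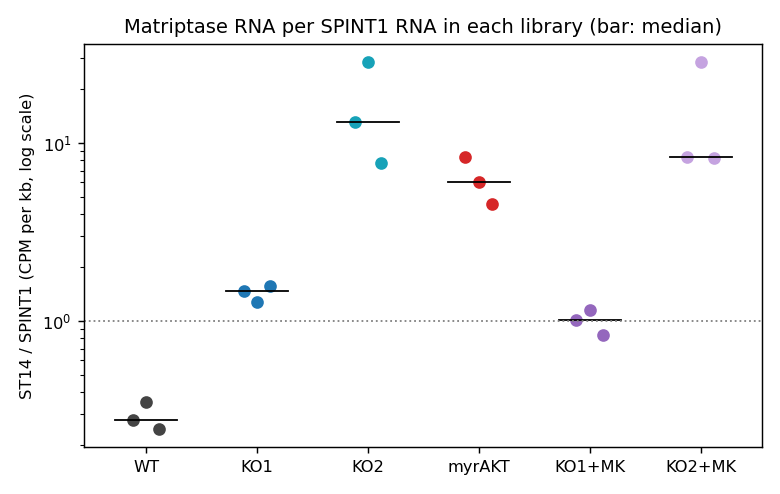
Ratio of ST14 to SPINT1 RNA in each library, both in CPM per kilobase of exon, on a log axis. Points are libraries and black bars are medians of 3. The WT libraries lie between 0.249 and 0.349, and the myrAKT libraries between 4.56 and 8.36. SPINT1 was chosen for its fall in the knockout pools, which in part fixes their higher ratios.

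In KO against WT, the contrast that chose the genes, the log2 fold change of SPINT1 was -3.39 in KO1 and -6.90 in KO2, the latter resting on 8 reads. ST14 was at -1.09 in KO1 and -1.54 in KO2, and SPINT2 at -0.38 and -0.32. MET was at -0.04 in KO1, where its libraries overlapped WT, and at -0.17 in KO2. In this comparison 15.5% of 15587 tested genes were called higher and 16.6% lower (adjusted p no more than 0.001), and nothing is read from these shares for the chosen genes.

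Constitutively active AKT was examined in cells with no GPS2 knockout. In myrAKT against WT 12.7% of tested genes were higher and 17.3% lower, so that 42.3% of the calls were higher, or 50.9% with library totals and 50.5% with upper-quartile factors. The WT libraries are the same as in the knockout contrast. SPINT1 was at -5.32 on the log2 scale, a description without a test, and the 3 myrAKT libraries were all below the 3 WT libraries. MET fell by 0.45 (95% interval -0.54 to -0.36, adjusted p = 5.65e-07, edgeR's quasi-likelihood test with Benjamini-Hochberg adjustment). ST14 fell by 0.94 (-1.33 to -0.54, adjusted p = 0.000637 in edgeR). The ST14 call was lost in 5 of the 6 fits that left out 1 library, namely each WT replicate and myrAKT replicates 2 and 3 (adjusted p up to 0.00490 in edgeR), and with upper-quartile or library-total scaling. SPINT2 did not pass, with a log2 fold change of 0.22 (0.11 to 0.33, adjusted p = 0.00166 in edgeR), but it passed as higher without myrAKT replicate 3 (adjusted p = 0.000320 in edgeR) and under 4 other settings, DESeq2 among them.

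ST14 did not pass the test for a change after 4 h of AKT inhibition in either knockout pool, and no test of SPINT1 is read. With MK2206 in both lines 12.8% of tested genes were higher and 8.75% lower, so that 59.3% of the calls were higher, or 48.3% with upper-quartile factors. SPINT1 was at 0.28 in KO1 on the log2 scale. This is a description without a test, because the untreated KO1 libraries took part in choosing SPINT1. Over all genes 10.9% were higher and 8.26% lower with MK2206 in KO1. Of these calls 56.9% were higher, or 47.9% with upper-quartile factors, 47.4% without a filter and 63.7% with library totals. In KO2 13.1% of genes were higher and 8.78% lower, with 59.9% of the calls higher, or 47.5% with upper-quartile factors. There 8 SPINT1 reads without and 9 with MK2206 lie near the floor of 3 counts per library, and no change is read from them. ST14 did not pass in KO1 (-0.26, -0.69 to 0.17, adjusted p = 0.315 in edgeR) or in KO2 (0.29, -0.23 to 0.80, adjusted p = 0.354 in edgeR).

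MET (ENSG00000105976, chr7:116672196-116798377) was the most abundant of the 7 genes, also per kilobase of exon, at 404, 410.0 and 414 CPM in WT. It was at 389, 396 and 422 in KO1 and 325, 340.2 and 337 in KO1+MK, and at 376, 353 and 365 in KO2 and 310.5, 309 and 328 in KO2+MK. The treated libraries of each line were below the untreated ones without overlap. MET fell by 0.24 in KO1 (-0.32 to -0.16, adjusted p = 0.000187 in edgeR) and by 0.19 in KO2 (-0.27 to -0.11, adjusted p = 0.000667 in edgeR) on the log2 scale. The call in KO1 was lost without KO1 replicate 3 (adjusted p = 0.00152 in edgeR), and that in KO2 without KO2 replicate 1, KO2 replicate 3 or KO2+MK replicate 2 (up to 0.00852). With both lines pooled MET fell by 0.22 (-0.30 to -0.13, adjusted p = 0.000559 in edgeR), which was lost without KO1 replicate 1, KO1 replicate 2 or KO2 replicate 1 (up to 0.00174) and with a replicate block (0.00154). The myrAKT libraries, at 302, 306 and 296 CPM, were lower still, so MET was below WT both with active AKT and after AKT inhibition in the knockout pools.

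SPINT2 changed with MK2206 by -0.13 on the log2 scale with both lines pooled (95% interval -0.20 to -0.06) and did not pass (adjusted p = 0.00365 in edgeR, 0.000215 to 0.0132 over alternative settings). Between the lines, the test of the difference in the MK2206 effect called 0.0128% of genes (2 of 15587), none of the tested pathway genes among them. Its values were 0.05 for MET (-0.06 to 0.17, adjusted p = 0.845 in edgeR) and 0.54 for ST14 (-0.11 to 1.20, adjusted p = 0.691 in edgeR).

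The untreated knockout pools were compared directly. Of all tested genes 7.06% were higher and 5.54% lower in KO1 than in KO2. Of these calls 56.0% were higher, or 70.7% without a filter and 50.1% with library totals. SPINT1 was 3.50 higher in KO1 on the log2 scale, the 3 KO1 libraries all being above the 3 KO2 libraries. This is a description without a test, since SPINT1 was chosen on these libraries and KO2 held 8 reads, near the floor. From 96 and 8 reads, scaled by library size, the ratio was 11.9 with an exact 95% counting interval of 5.82 to 28.4. MET was at 0.13 (0.06 to 0.20, adjusted p = 0.00743 in edgeR), ST14 at 0.45 (0.03 to 0.88, adjusted p = 0.0913 in edgeR) and SPINT2 at -0.06 (-0.13 to 0.01, adjusted p = 0.196 in edgeR), and these 3 did not pass.

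The MK2206-treated pools were also set against WT, where 16.0% of tested genes were higher and 16.1% lower. Of these calls 49.8% were higher, or 43.1% with upper-quartile factors and 35.8% without a filter. The treated libraries took no part in choosing the genes, but the WT libraries and the cell pools are those of the knockout contrast. SPINT1 was at -4.02, without a test, and ST14 fell by 1.31 (95% interval -1.66 to -0.97, adjusted p = 2.20e-05 in edgeR) on the log2 scale. The SPINT1 value was -3.12 with KO1+MK alone and -6.40 with KO2+MK alone, the latter resting on 9 reads near the floor. SPINT2 fell by 0.50 (-0.58 to -0.41, adjusted p = 9.03e-07 in edgeR) and MET by 0.34 (-0.43 to -0.25, adjusted p = 1.78e-05 in edgeR). All 6 treated libraries were below the 3 WT libraries for each of these genes, which for SPINT1 the choice and the filter in part fix. The share of all tested genes without overlap was not counted, so nothing particular to the pathway is read from this.

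**Figure D3:**
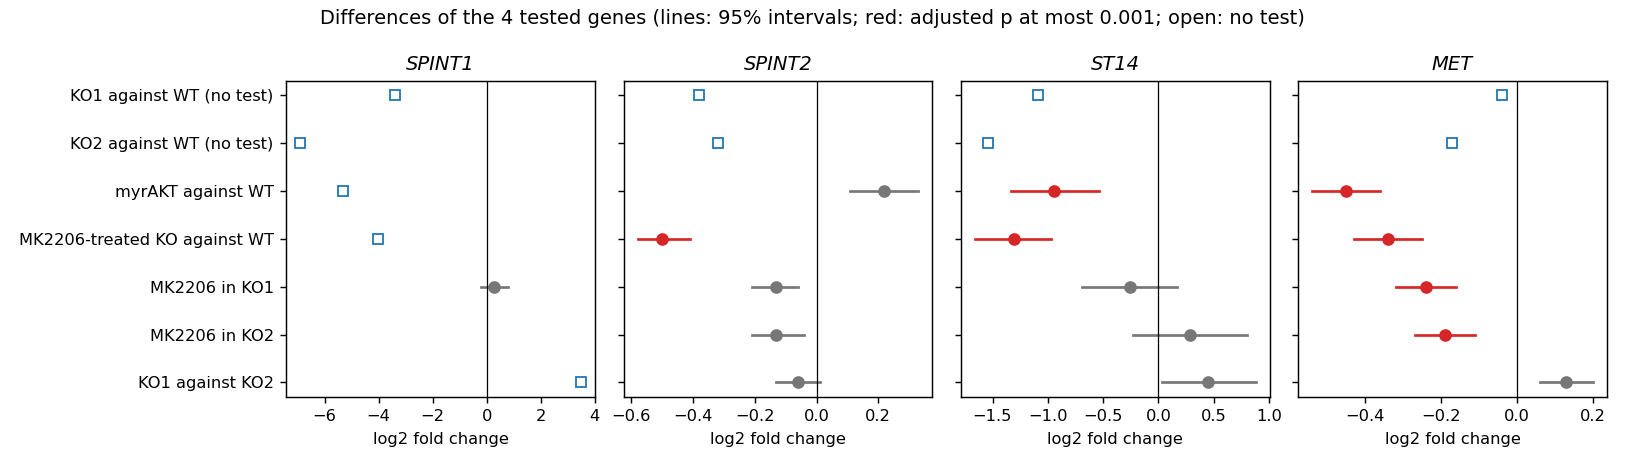
Log2 fold changes of SPINT1, SPINT2, ST14 and MET, with a separate horizontal scale for each gene. Circles carry 95% intervals and are red where the adjusted p was at most 0.001, and open squares show values without a test, the knockout contrasts with WT and, for SPINT1, every contrast drawn except MK2206 in KO1. The SPINT1 interval for MK2206 in KO1 is not read as a test, because the untreated KO1 libraries took part in choosing SPINT1. SPINT1 with MK2206 in KO2 is not drawn because both groups lie near the floor. SPINT1 was at -5.32 in myrAKT and was 3.50 higher in KO1 than in KO2.

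Ligand and alternative protease RNA was scarce. HGF (ENSG00000019991, chr7:81699010-81770438 on the minus strand) had 1 read in a WT library, 1, 1 and 2 reads in myrAKT, and 0 reads in every other library. HPN (ENSG00000105707, chr19:35040506-35066573) had 4, 3 and 1 reads in WT and 0 to 3 in the other libraries, and shares 349 exon bases with HPN-AS1. A count of 0 allows up to 3 reads in a library, so neither gene can be ordered between groups at this depth.

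HGFAC (ENSG00000109758, chr4:3441968-3449486) was also low, with more reads in the treated libraries. It had 2, 0 and 0 reads in KO1 against 5, 7 and 7 in KO1+MK, and 2, 2 and 5 in KO2 against 21, 8 and 19 in KO2+MK. WT held 1, 3 and 2 reads and myrAKT 3, 5 and 1. The 6 treated libraries, at 0.389 ± 0.220 CPM, were all above the 6 untreated knockout libraries, at 0.0495 ± 0.0499 CPM. The difference was 0.339 CPM. When genes were not filtered, the edgeR fits gave HGFAC an adjusted p of 0.00139 with MK2206 in KO1, which did not pass, 6.71e-07 in KO2 and 0.00015 with both lines pooled. The difference in its MK2206 effect between the lines did not pass (adjusted p = 0.9999 in edgeR). Untreated levels rest on 11 reads in all and treated levels on 67, so no fold change is given.

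Other genes of the pathway were taken as lists, and their counts are set beside the shares of all 15587 tested genes. Of 16 Kunitz-type inhibitor genes 10 were tested, and in myrAKT against WT 3 were higher, 3 lower and 4 did not pass, beside 12.7% higher and 17.3% lower over all genes. The median log2 fold change was 0.18 against 0.016 over all genes. SPINT1 is among the 3 lower and among those lower in the treated pools, although no test of it is read. COL6A3, a collagen chain with a Kunitz domain, rose by 2.85 (adjusted p = 1.86e-10 in edgeR), whereas TFPI, the inhibitor of tissue factor, fell by 0.34 (adjusted p = 2.40e-05 in edgeR). In the treated pools against WT 0 were higher and 4 lower, beside 16.0% and 16.1% of all genes, and TFPI was among them at -0.79. TFPI was at -0.85 in KO against WT.

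Membrane-anchored serine proteases were mostly below the filter and 4 of 21 were tested, ST14 among them. Each of the 4 was highest in WT, so the counts describe these genes and not the list. In myrAKT 3 were lower and 0 higher, beside 17.3% and 12.7% of all genes, with a median of -3.53 against 0.016. The counts were equal in the treated pools, beside 16.1% and 16.0% of all genes, with a median of -1.65 against 0.004. TMPRSS15, the gene of enteropeptidase, had 606 to 750 reads in WT and 4 to 5 in myrAKT and fell by 7.18 there (adjusted p = 8.60e-13 in edgeR). TMPRSS3 had 136 to 169 reads in WT and 1 to 3 in myrAKT and fell by 6.12 (adjusted p = 6.53e-10 in edgeR). Its mean was above 1 CPM only in WT (4.28) and KO1+MK (1.09), so its difference from WT follows in part from the filter. In KO against WT TMPRSS15 was at -2.08 and TMPRSS3 at -2.68. After MK2206 0 of the 4 passed in either line. Over all genes 10.9% were higher and 8.26% lower in KO1, and 13.1% and 8.78% in KO2. Nothing particular to these proteases is read from this.

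Among the secreted proteases of HGF and MSP, a list that also holds MSP and its receptor, 5 of 12 genes were tested. In myrAKT 2 were higher and 2 lower, beside 12.7% and 17.3% of all genes, with a median of 0.25 against 0.016. PLAT, tissue plasminogen activator, fell by 1.54 (adjusted p = 3.69e-11 in edgeR), and F12, coagulation factor XII, fell by 0.58 (adjusted p = 0.000232 in edgeR), a call lost without WT replicate 2, WT replicate 3 or myrAKT replicate 2. In the treated pools 3 were lower and 0 higher, beside 16.1% and 16.0% of all genes, with PLAT at -1.48 and the MSP receptor gene MST1R at -0.74. PLAT was at -1.33 and MST1R at -0.38 in KO against WT. With MK2206 in both lines MST1R fell by 0.35 (adjusted p = 3.94e-05 in edgeR). PLAU, urokinase, did not pass there but fell by 0.34 in KO1 (adjusted p = 0.000468 in edgeR) and by 0.53 in KO2 (adjusted p = 0.00021 in edgeR). The KO1 call was lost without any 1 of the KO1 replicates (adjusted p up to 0.00309 in edgeR) and with all 18 libraries in 1 fit, and the KO2 call without KO2 replicate 1, KO2 replicate 3 or KO2+MK replicate 2 (up to 0.00356) and with DESeq2.

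Of 9 serpin genes, inhibitors of these proteases, 6 were tested, and 3 were higher and 1 lower in myrAKT, where 12.7% and 17.3% of all genes were. SERPINA1, the gene of alpha-1 antitrypsin, rose by 1.55 (adjusted p = 2.08e-06 in edgeR), and SERPINB2, an inhibitor of plasminogen activators, fell by 1.84 (adjusted p = 0.000176 in edgeR), which was lost without WT replicate 3 (0.00165). In the treated pools 3 were lower and 0 higher, beside 16.1% and 16.0% of all genes, with SERPINA5 at -2.40 (adjusted p = 7.29e-06 in edgeR) and SERPINF2 at -1.37 (adjusted p = 7.42e-05 in edgeR). The SERPINF2 call was lost with KO1+MK alone (adjusted p = 0.00107 in edgeR). SERPINA5 was at -2.12 in KO against WT. With MK2206 in both lines 0 of the 6 serpins passed, beside 12.8% of all genes higher and 8.75% lower. Nothing particular to serpins is read from this.

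**Figure D4:**
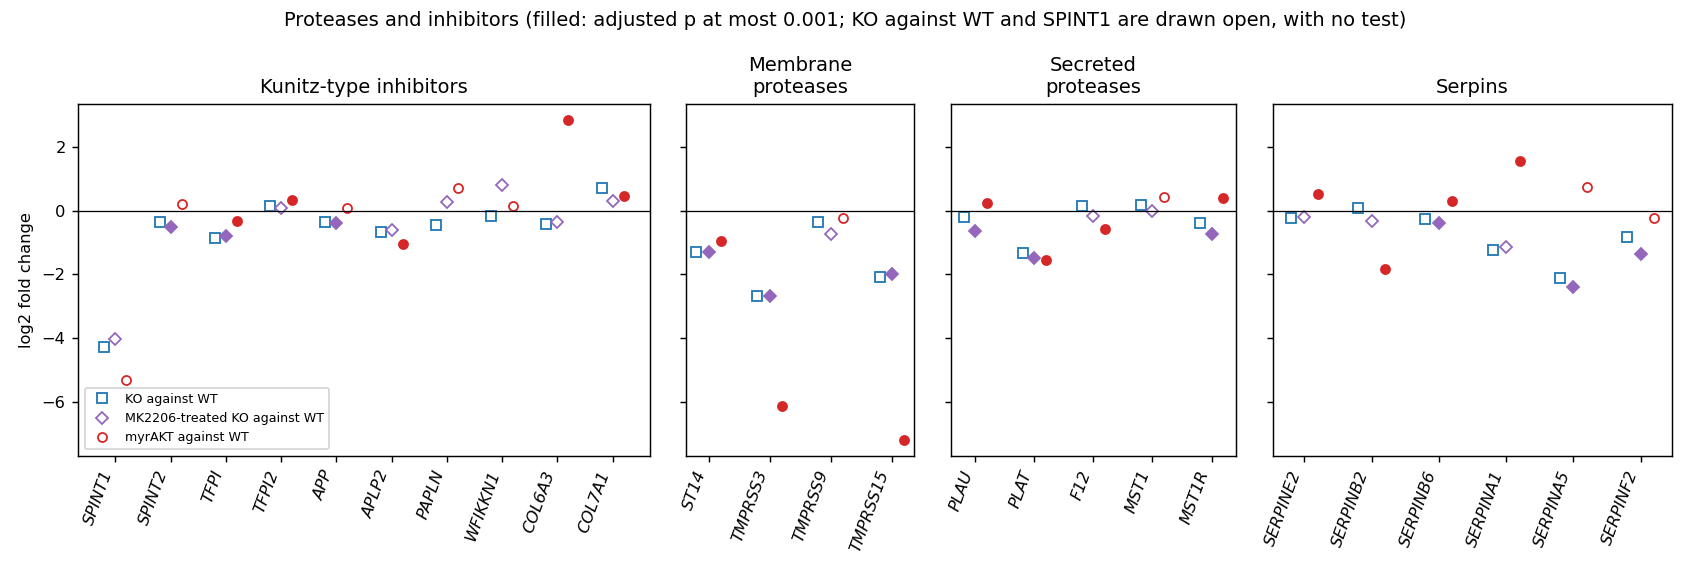
Log2 fold changes of the tested Kunitz-type inhibitors, membrane-anchored proteases, secreted proteases and serpins against WT. Filled symbols had an adjusted p of at most 0.001, and squares (KO against WT) and the symbols of SPINT1 are open because no test is given. TMPRSS15 and TMPRSS3 lie at -7.18 and -6.12 in myrAKT, beside SPINT1 at -5.32.

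Of 8 genes of matriptase substrates 5 were tested, ST14 itself among them, and in myrAKT 1 was higher and 3 lower, beside 12.7% and 17.3% of all genes. EPCAM, an epithelial adhesion molecule, fell by 1.90 (adjusted p = 7.54e-10 in edgeR) and F2RL1, the protease-activated receptor PAR-2, by 1.21 (adjusted p = 1.78e-09 in edgeR). In the treated pools 4 were lower and 0 higher, beside 16.1% and 16.0% of all genes, and CDCP1, a transmembrane protein cleaved by serine proteases, fell by 1.07 (adjusted p = 1.29e-05 in edgeR). F2RL1 fell with MK2206 by 0.49 in KO1 (adjusted p = 2.36e-06 in edgeR) and by 0.56 in KO2 (adjusted p = 1.82e-07 in edgeR), and did not pass with both lines pooled (-0.52, adjusted p = 0.00124 in edgeR).

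Adaptors, partners and negative regulators of MET were nearly all expressed, with 26 of 27 tested, MET included. In myrAKT 3 were higher and 8 lower, beside 12.7% and 17.3% of all genes, among them ITGB4, an integrin chain, which rose by 1.88 (adjusted p = 1.21e-11 in edgeR), and PTPRJ, a phosphatase of MET, which fell by 1.495 (adjusted p = 1.70e-11 in edgeR). With MK2206 in both lines 5 of the 26 were higher and 2 lower, beside 12.8% and 8.75% of all tested genes, and nothing particular to the list is read from these counts. GAB1, the docking adaptor of MET, rose by 0.81 (adjusted p = 5.74e-07 in edgeR) and PIK3R1, a regulatory subunit of PI3K, by 0.89 (adjusted p = 0.000157 in edgeR), whereas MET fell. In the treated pools against WT 6 were higher and 9 lower, beside 16.0% and 16.1% of all genes, with PIK3R1 at 1.49 and PLXNB1, a semaphorin receptor, at -1.28. PLXNB1 was at -1.30 and PTPRJ at -1.19 in KO against WT, and ITGB4 was lower in KO1 than in KO2, at -1.28 on the log2 scale (adjusted p = 5.74e-11 in edgeR).

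SPINT1 and ST14 are known from epithelia, and 9 of 18 epithelial genes were tested. In myrAKT 2 were higher and 5 lower, beside 12.7% and 17.3% of all genes, with a median of -1.03 against 0.016. ELF3, an epithelial transcription factor, fell by 2.40 (adjusted p = 9.97e-09 in edgeR). In the treated pools 1 was higher and 6 lower, beside 16.0% and 16.1% of all genes, with ELF3 at -3.31 (adjusted p = 5.31e-06 in edgeR) and the splicing factor ESRP1 at -2.26 (adjusted p = 1.62e-06 in edgeR). CDH1 was not tested, with 24 reads over the 18 libraries. The part of these genes in the lower SPINT1 values was not tested. GRHL1, an epithelial transcription factor, rose by 1.44 with MK2206 in both lines (adjusted p = 9.56e-09 in edgeR).

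The tested genes described within 250 kb of SPINT1 were KNL1, RMDN3, C15orf62, ZFYVE19, DNAJC17, RHOV, VPS18, DLL4, CHAC1 and INO80. Their log2 fold changes in myrAKT against WT lay between -0.63 for RHOV and 0.66 for VPS18. VPS18, a vesicle sorting gene, was called higher (adjusted p = 8.65e-07 in edgeR), and 0 were called lower, beside 12.7% and 17.3% of all genes. With MK2206 in both lines RHOV rose by 0.98 (adjusted p = 7.55e-06 in edgeR) and DNAJC17 fell by 0.58 (adjusted p = 6.93e-06 in edgeR). The other 8 did not pass, beside 12.8% of all genes higher and 8.75% lower. In KO against WT the 10 genes ranged from -0.99 for CHAC1 to 1.05 for DLL4. SPINT1-AS1 had 0 to 2 reads in a library. The 4 tested genes within 250 kb of ST14, ADAMTS15, APLP2, PRDM10 and ZBTB44, were lower in myrAKT (-1.17 to -0.68), where 17.3% of all genes were, and these were named after their values were seen.

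**Figure D5:**
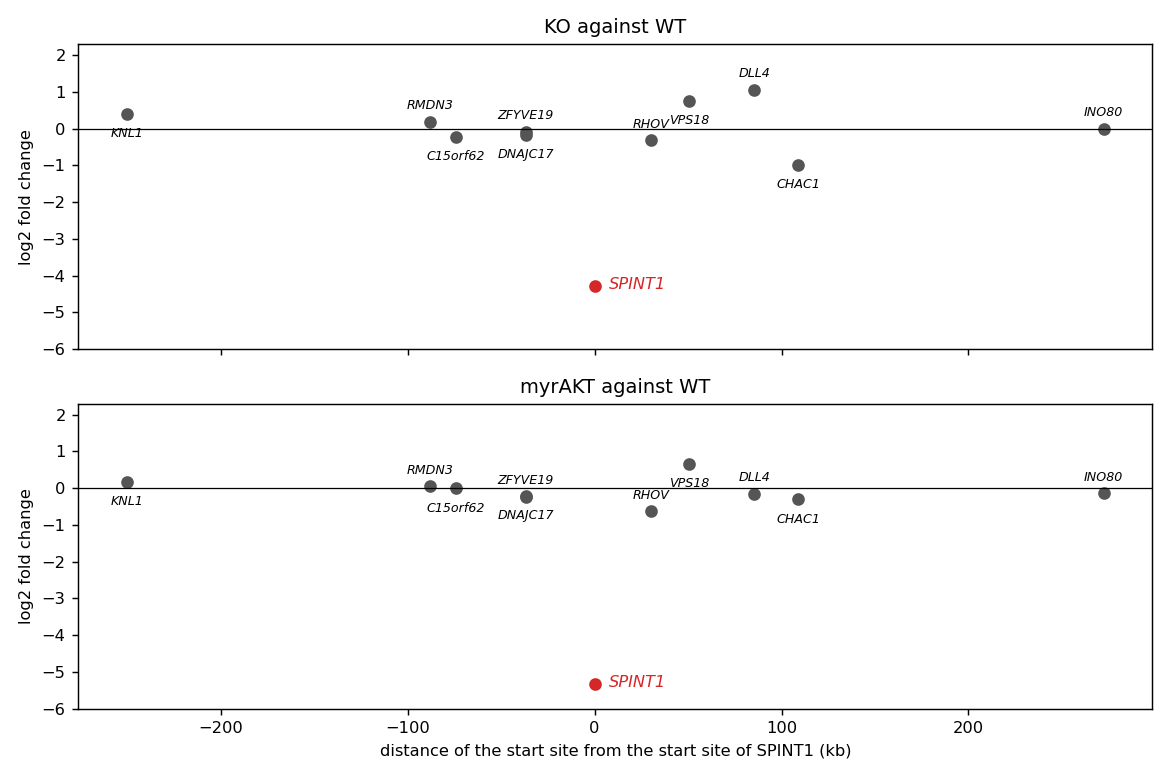
Log2 fold change of SPINT1 (red) and 10 tested genes within 250 kb of it (grey), by distance of their start sites in kb, for KO against WT (top, no test) and myrAKT against WT (bottom). SPINT1 lies at -4.27 and -5.32, and the neighbours between -0.99 and 1.05.

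Over the 18 libraries the pattern of SPINT1 was most like those of C11orf54, SQOR, ADGRF5, COLGALT2 and SEL1L3, with Pearson's r of log2 CPM between 0.978 and 0.988. ADGRF5, an adhesion G protein-coupled receptor, was at 282 CPM in WT, 94.97 in KO1, 36.3 in KO2 and 54.6 in myrAKT. For ST14 the closest genes were LINC01703, TMEM181, SSH3, MAP4K5 and RNF145 (r = 0.896 to 0.913), and r of ST14 with SPINT1 was 0.787. SPINT2 was most like FMNL1, IGFBP7, SPEG, PLLP and ZBTB4 (0.980 to 0.981) and MET most like SINHCAF, LAYN, ETS1, PTX3 and PARD3 (0.964 to 0.970). These correlations are a description over 6 groups of 3 libraries that share a parental line and a sequencing pool, and the separation of the groups enters each of them.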

How the data were processed

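Gene counts of 18 libraries were used. The unit is the count: the authors trimmed reads with Trim Galore, aligned them to hg38 with HISAT2 and counted them per Ensembl gene with featureCounts, and deposited the counts without normalization. Tool versions, annotation and strand setting were not given in the sources used here, and without the strand setting reads of SPINT1, SPINT2 and HPN cannot be told apart from those of their antisense genes. Ribosomal RNA was removed before library preparation, and the libraries were pooled and read in 2 sequencing runs. Groups came from the sample labels.

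Of the 57448 genes 56948 had an entry in GENCODE release 44, from which symbols, positions and exon lengths were taken. The 15587 genes that reached 1 CPM in 3 or more of the 18 libraries were fitted with edgeR 4.0.16 in R 4.3.3 (TMM, quasi-likelihood test, Benjamini-Hochberg over all tested genes), with only the compared groups in a fit, and called at an adjusted p of at most 0.001 without a minimum fold change. Log2 CPM used a prior count of 2. Alternatives were DESeq2 1.42.0, other scalings, no filter, all 18 libraries in 1 fit, a replicate block, a line covariate, other thresholds and the omission of each library. The line covariate together with the replicate block was added after seeing the data. The fits were checked on simulated counts. Pairs of replicates had a mean chi-square per gene of 2.26 to 11.6, above counting noise, and no library was counted as a repeat of another.

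The genes and lists were chosen with earlier results of these data known. All 7 genes, GPS2 and AKT1 were named, with up to 2 called genes of each list and comparison by size of change, the 5 genes most correlated with each tested gene, and tested neighbours of SPINT1. Promoter sequences came from RefSeq (GRCh38.p14), with windows for 5 of the 7 genes. Some genes of the lists and near SPINT1 are left out of these names and counts and are not reported here.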

Additional observations from a re-analysis of the deposited data

Results flagged for a closer look

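SPINT1 differed between the knockout pools, with an effect in KO1 that was 3.50 higher than in KO2 on the log2 scale. All 3 KO1 libraries were above all 3 KO2 libraries. SPINT1 was chosen on these libraries and KO2 held 8 reads in all, near the floor of 3 counts per library, so no test is given. The pools received different sgRNA sets, and the part of editing efficiency or of the mix of cells in this difference was not tested.

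HGFAC lay below the level needed for the gene-wide test and still showed a signal in the treated pools, at a mean of 0.389 CPM in 6 libraries against 0.0495 CPM in 6 untreated libraries of the same pools. When genes were not filtered it passed with MK2206 in KO2 (adjusted p = 6.71e-07 in edgeR) and not in KO1 (adjusted p = 0.00139 in edgeR). The difference in its MK2206 effect between the lines did not pass (adjusted p = 0.9999 in edgeR). Groups of 3 libraries were not examined for single samples far from the rest. Over the 6 untreated and the 6 treated knockout libraries, 8 gene and group pairs were examined and none held such a sample.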

How the results depend on the processing

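SPINT1 was lower than WT in myrAKT and in the treated pools and higher in KO1 than in KO2 under each alternative run, a direction that the choice of SPINT1 from the WT and knockout libraries in part fixes. The number of tested genes of the 4 that passed with MK2206 in both lines, 1, became 2 with DESeq2, upper-quartile factors, all 18 libraries in 1 fit, the line covariate, and the line covariate with the replicate block, SPINT2 being added. It became 0 with a fold change of at least 1.5, at either adjusted p of 0.001 or 0.05, and 0 to 1 with a library left out. With MK2206 in KO1 and in KO2 these counts, 1 each, were 0 at that fold change and 0 to 1 with a library left out. In myrAKT against WT the MET call, at 1.36-fold below WT, was also lost at that fold change. With SPINT1 counted, although no test of it is read there, the number was 2 in place of 1 in KO1 against KO2 without a filter, MET being added, and 2 in place of 4 in the treated pools at that fold change. SPINT1 in KO against WT moved from -4.27 to -5.13 with all 18 libraries in 1 fit, and to -4.60 to -4.01 with a library left out. Small values that were not called changed sign: SPINT1 with MK2206 was -0.12 to 0.59 in both lines and -0.042 to 0.89 in KO2, where both groups lie near the floor and no change is read from it, and its difference between lines was -0.31 to 0.61 with a library left out. ST14 with MK2206 in both lines moved from -0.0041 to 0.0130 with library totals, 0.0085 with the line covariate and 0.0053 with the replicate block beside it, and lay between -0.11 and 0.060 with a library left out. The difference of the SPINT2 effect between lines was -0.012 with upper-quartile factors, -0.018 with library totals and -0.020 to 0.044 with a library left out. Over all genes, calls rose with all 18 libraries in 1 fit from 5006 to 7543 in KO against WT, from 4994 to 7741 in the treated pools and from 3352 to 5793 with MK2206 in both lines, where the line covariate gave 5665 and, with the replicate block, 5356. Without a filter they rose from 1964 to 3076 in KO1 against KO2. The difference in the MK2206 effect went from 2 calls to 20 with DESeq2, 60 without a filter and 1 with the replicate block. The causes were not tested.

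Replicate numbers did not pair the samples: in no pair of groups did all 3 correlations of same-numbered libraries exceed 0.1. With the replicate block 0 of the 4 tested pathway genes passed with MK2206 in both lines, where 2641 of all 15587 tested genes did (1628 higher and 1013 lower). Depth limits SPINT1 in KO2, HGF, HPN and HGFAC, whose values rest on a few reads.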
